A study of Mus musculus with 15 samples.

Results

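The genes described here encode the proteins that dock synaptic vesicles, sense calcium and fuse vesicles with the plasma membrane. They were chosen by symbol, as Snap25, Syn1 to Syn3, Sv2a to Sv2c, and every Syt, Cplx, Vamp, Stx or Stxbp symbol directly followed by a number. The rule found 58 of the 26145 genes in the count table of this mouse prefrontal cortex series: 5 neuronal SNAREs, 4 complexins, 17 synaptotagmins, 8 syntaxin-binding proteins, 3 synapsins, 3 SV2 proteins, 5 other VAMPs and 13 other syntaxins. The rule used no measured value.

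Single cells from the prefrontal cortex of male C57BL/6N mice were captured with the 10x Chromium 3′ kit, and transcripts were counted as unique molecular identifiers (UMIs). The 12 libraries of adult mice (P60, 8 to 10 weeks old) came from mice that self-administered cocaine or saline intravenously, sampled during maintenance, 48 h after the last session or 15 days after it, with 2 libraries in each of the 6 groups and tissue of 2 mice in each library. The 3 libraries of juvenile mice (P21, 3 weeks old) came from mice with no treatment, and how the mice were divided among them is not given in the sources used here. With 4 P21 mice in all and pools of 2, some of the 3 P21 libraries may share an animal, in which case the p-values for age are too small. The saline mice went through the same procedure as the cocaine mice and the P21 mice did not, so that age and this procedure cannot be told apart. One label field names the nucleus accumbens, whereas title and source name the prefrontal cortex; the excitatory cells expressed the cortical markers Slc17a7 at 410 ± 52.4, Neurod6 at 484 ± 40.0 and Tbr1 at 49.8 ± 6.11 CPM (UMIs scaled to a common library total; SD, n = 12) at P60.

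Fusion is driven by the SNARE complex, in which synaptobrevin (Vamp1, Vamp2) on the vesicle pairs with the syntaxin Stx1a and SNAP-25 on the plasma membrane. Complexins hold the assembled complex in a primed state, and synaptotagmins such as Syt1 and Syt2 bind calcium and trigger release. Synapsins tether vesicles to one another and to the cytoskeleton, SV2 glycoproteins are integral vesicle proteins, and most other VAMPs and syntaxins serve traffic between endosomes, Golgi and plasma membrane in all cells.

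The table held 35360 cells, 24822 at P60 and 10538 at P21, and between 8375172 and 42892922 UMIs per library. The authors' cell classes were used: excitatory and inhibitory neurons, astrocytes, oligodendrocytes, newly formed oligodendrocytes, oligodendrocyte precursors, microglia and endothelial cells. Each class had the highest summed level of its own 5 marker genes at both ages, by 1.98-fold to 199-fold over the next class. Libraries shared at most 1.09% of the smaller library's cell barcodes. Of the 58 genes, 50 had at least 200 UMIs over all cells, 7 had 1 to 199, and Vamp7 had 0. The 7 sparse genes were Syt8 (2 UMIs), Cplx4 (3), Stx19 (16), Stxbp3b (54), Stx11 (95), Syt2 (139) and Syt15 (168), and the counts by class below include them.

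Levels are given as CPM of the UMIs summed over the cells of a class in a library, with mitochondrial and ribosomal protein genes left out. They were compared between cell types for the same gene only. The authors formed the classes and clusters from the same counts, so these levels are a description, with no test. Summed over the 58 genes, the excitatory class carried 12910 ± 506 CPM and the inhibitory class 11009 ± 428 CPM (SD, n = 12 P60 libraries), whereas the non-neuronal classes averaged between 2683 CPM in endothelial cells and 4155 CPM in oligodendrocytes. Of the 57 detected genes, 20 had their highest mean in excitatory neurons, 13 in inhibitory neurons and 24 in a non-neuronal class. For many genes the ranges of the highest and the next class overlapped, so the order was not settled. Stxbp6, for example, had 65.7 ± 25.4 CPM in oligodendrocytes and 60.1 ± 26.7 CPM in inhibitory neurons.

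**Figure D1:**
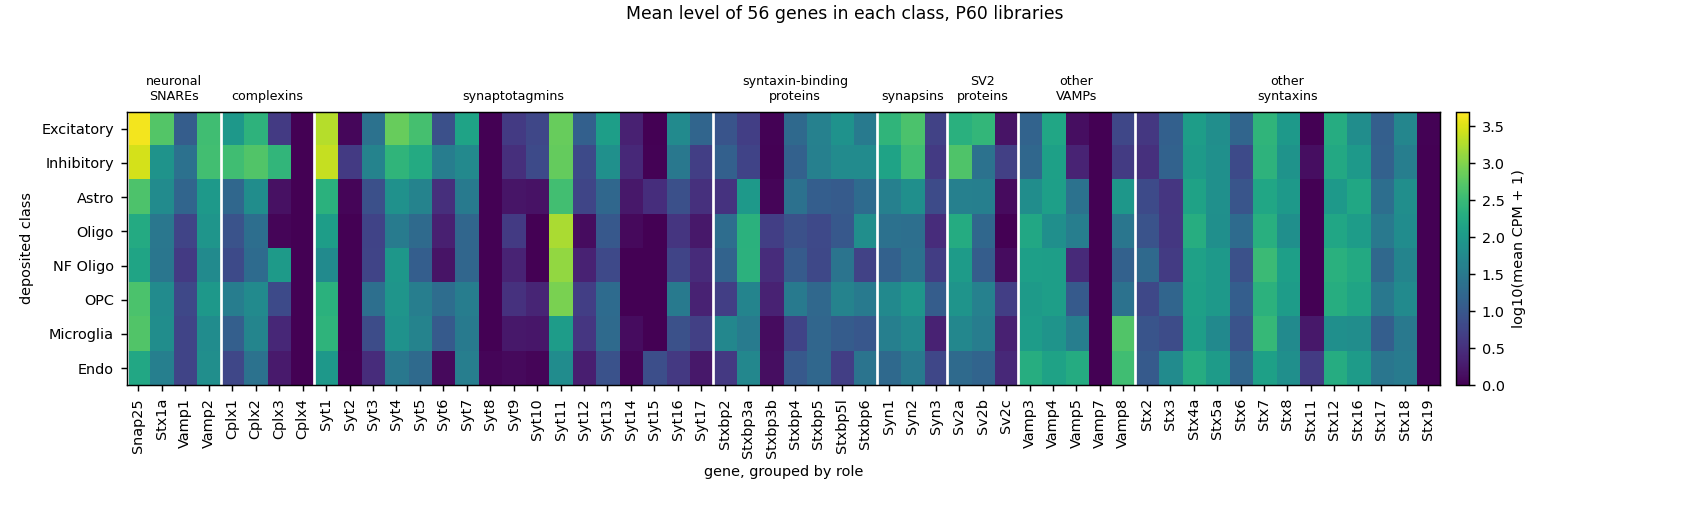
Mean level of 56 of the 58 genes in each of the 8 cell classes over the P60 libraries, as log10(CPM + 1), with genes grouped by role. Colours should be compared along a gene and not between genes; yellow is high and dark blue low, so that Snap25, Syt1 and Syt4 are brightest in the neuron classes, and Vamp5, Vamp8 and Stxbp3a outside them.

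Among the SNAREs, Snap25 averaged 4322 ± 454 CPM in the excitatory class against 2939 ± 196 CPM in the inhibitory one, and the excitatory value was higher in 12 of 12 libraries with no overlap of the ranges. Stx1a differed more, with 517 ± 36.0 CPM in excitatory against 79.0 ± 29.0 CPM in inhibitory neurons. Vamp2 did not separate the classes (370 ± 53.3 against 382 ± 70.7 CPM), while Vamp1 was low and lay at 11.3 ± 1.61 against 22.8 ± 6.29 CPM.

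Of the complexins, Cplx1, Cplx2 and Cplx3 had higher P60 class means in inhibitory than in excitatory neurons, though clusters within the classes varied. Cplx1 had 363 ± 67.7 CPM in the inhibitory class against 93.6 ± 14.8 CPM in the excitatory one, and Cplx3, best known from retinal ribbon synapses, had 267 ± 78.4 against 3.23 ± 2.18 CPM. Cplx1 and Cplx3 were higher in inhibitory neurons in 12 of 12 libraries with no overlap. Cplx2 averaged 496 ± 189 against 248 ± 56.4 CPM, also higher in inhibitory neurons in 12 of 12 libraries but with overlapping ranges. Cplx3 was also found in newly formed oligodendrocytes, at 101 ± 66.7 CPM over 11 libraries, of which 1 reached 285 CPM.

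Of the synaptotagmins, Syt1 was modestly higher in inhibitory neurons (2344 ± 184 against 1961 ± 105 CPM, 12 of 12 libraries). Syt2, the fast sensor of many inhibitory synapses, was near the detection limit (3.21 ± 2.15 against 0.168 ± 0.182 CPM, from 32 and 39 UMIs). Excitatory neurons carried more of Syt4, found on dense-core vesicles, at 696 ± 56.7 against 261 ± 38.8 CPM. The vesicle synaptotagmin Syt5 lay at 410 ± 34.0 against 180 ± 21.2 CPM, and Syt7, a slow, high-affinity sensor, at 140 ± 13.6 against 53.7 ± 22.4 CPM. Syt16 and Syt17 separated in the same direction. Syt11, which does not bind calcium, was instead highest in oligodendrocytes (1719 ± 260 CPM) and newly formed oligodendrocytes (1264 ± 104 CPM), against 692 ± 77.6 CPM in excitatory neurons.

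Synapsin 1 (Syn1) was higher in excitatory neurons, at 266 ± 41.9 against 138 ± 27 CPM. Syn2 (454 ± 55.8 against 370 ± 53.2 CPM) was higher there in 12 of 12 libraries, with overlapping ranges. Syn3 stayed below 7 CPM in both classes. The SV2 family split by class. Sv2b was an excitatory gene, at 277 ± 25.8 against 23.7 ± 18 CPM, whereas Sv2a was higher in inhibitory neurons, at 474 ± 39.4 against 221 ± 25.4 CPM, both in 12 of 12 libraries. Sv2c had 106 UMIs in all P60 excitatory cells. The tomosyn paralog Stxbp5l (77.2 ± 6.94 against 59.1 ± 13.3 CPM) was higher in excitatory neurons in 12 of 12 libraries, with overlapping ranges.

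Several members were non-neuronal genes. Vamp8, a SNARE of endosomes and regulated secretion, had 502 ± 108 CPM in microglia and 362 ± 38.3 CPM in endothelial cells against 5.23 ± 1.5 CPM in excitatory neurons. Vamp5 was highest in endothelial cells at 189 ± 15.3 CPM, followed by oligodendrocytes at 37.8 ± 17.4 CPM. Stx3 was likewise endothelial (59.0 ± 9.76 CPM). Stxbp3a, a syntaxin-binding gene, had 237 ± 58.3 CPM in newly formed and 233 ± 40.2 CPM in mature oligodendrocytes, with overlapping ranges, and 3.84 ± 0.515 CPM in excitatory neurons. Stxbp2, which serves secretion in blood cells, was highest in microglia (49.8 ± 14.4 CPM). Neuronal members in non-neuronal cells have to be read with caution: Snap25 ranged from 35.0 to 1518 CPM in astrocytes over the P60 libraries, and the excitatory marker Slc17a7 ranged from 11.6 to 206 CPM in the same cells. Its part in the levels was not tested.

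Within the 26 excitatory clusters of the authors, ratios of highest to lowest mean were taken for members above 0 in every cluster. The widest were those of Stxbp6 (188) and Syt17 (178), whose lowest means were 0.873 and 0.144 CPM. Members with a mean of 0 in a cluster, Syt6 and Cplx3 among them, had no such ratio. Cplx2 ranged from 22.7 ± 9.48 CPM in Exc_17 (n = 9 libraries) to 750 ± 110 CPM in Exc_18 (n = 7). Its largest step, between the lower 10 and the upper 16 clusters, was 1.67-fold. The levels beside that step were 64.8 ± 18.9 CPM in Exc_11 and 108 ± 40.4 CPM in Exc_25, with overlapping SDs. Stxbp4 was the one member with over 100 UMIs whose highest cluster mean lay above 2 times the next, at 59.0 ± 13.8 CPM in Exc_21 (n = 12) against 23.4 ± 9.36 CPM in Exc_7 (n = 9). Syt6 was highest in Exc_18, Exc_19 and Exc_20, with 75.4 ± 13.2, 89.4 ± 22.3 and 112 ± 37.4 CPM, whereas Exc_21 had 3.45 ± 2.40 CPM. Syt17 and Stxbp6 were near 0 in Exc_19 and Exc_20. By contrast, Snap25 varied only from 2319 CPM in Exc_7 to 6280 CPM in Exc_24. Syt2 was highest in Exc_26, at 2.25 ± 2.67 CPM from 12 UMIs.

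The 12 inhibitory clusters were small, so their P60 UMIs were pooled over libraries. Cplx2 and Cplx3 took opposite extremes: Inhib_12 held 1792 CPM of Cplx2 and 0 UMIs of Cplx3 in 30 cells, and Inhib_11 held 1614 CPM of Cplx2. In Inhib_7, the largest cluster with 392 cells, Cplx2 was at its lowest, 77.2 CPM, and Cplx3 at its highest, 598 CPM. Inhib_7 held 2052 of the 2540 Cplx3 UMIs of the inhibitory class at P60. Cplx1 was highest in Inhib_6 at 626 CPM and lowest in Inhib_9 at 161 CPM. The excitatory cluster Exc_26 held more Cplx1 than Inhib_9, at 315 ± 95.6 CPM (n = 8 libraries). Syt10 had 38 UMIs in Inhib_3, at 43.8 ± 75.8 CPM over 4 libraries, of which 1 had 157 CPM and the others at most 11.1 CPM. Syt2, Vamp5 and Stx11 also had a highest inhibitory cluster above 2 times the next, from 10, 10 and 3 UMIs.

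**Figure D2:**
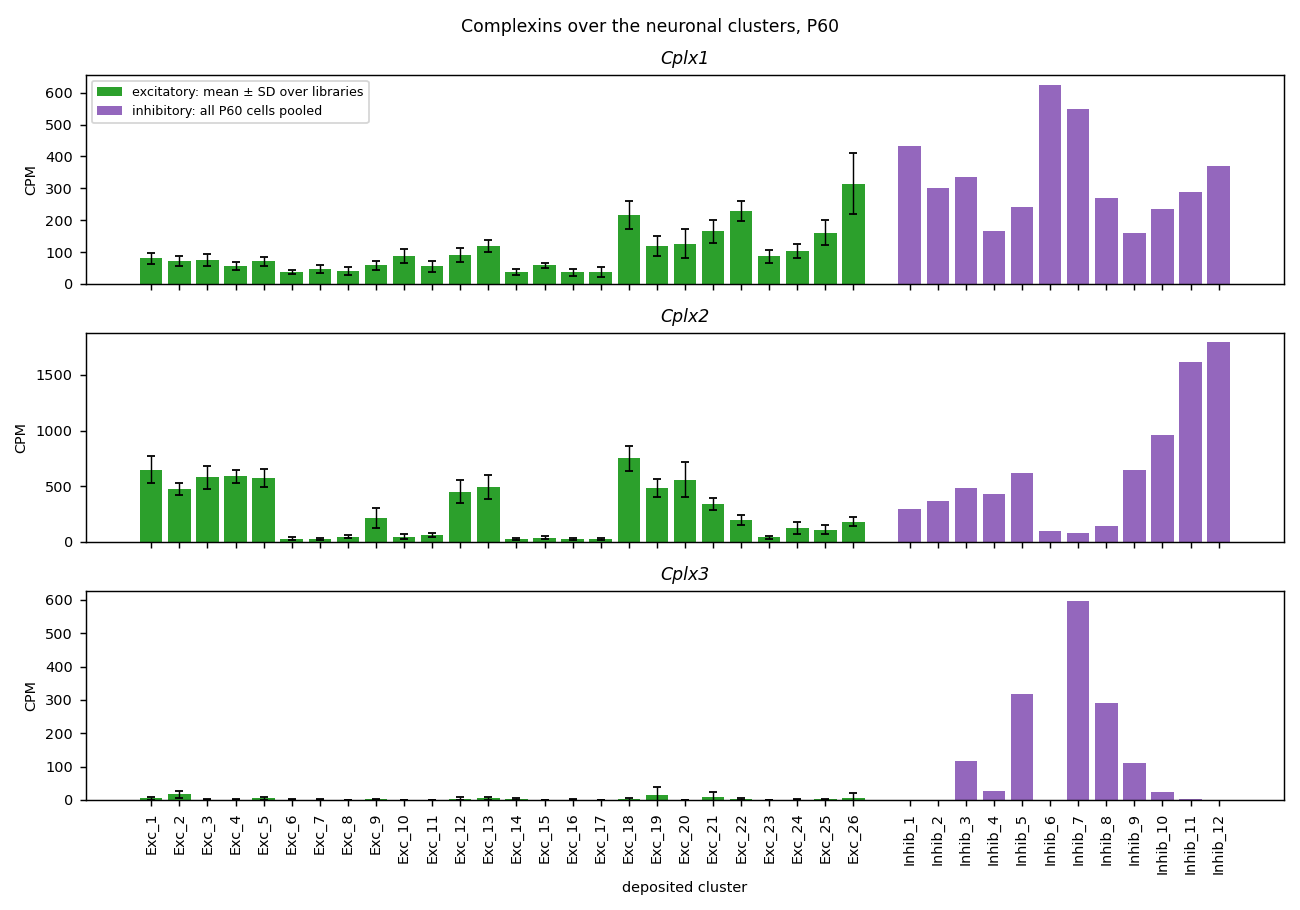
Levels of Cplx1, Cplx2 and Cplx3 in CPM in the excitatory clusters (mean ± SD over P60 libraries with at least 10 cells) and the inhibitory clusters (pooled P60 UMIs, no error). Cplx2 spans 22.7 to 750 CPM over excitatory clusters, and Cplx3 reaches 598 CPM in Inhib_7.

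The age comparison asks how the release machinery differed between juvenile and adult cortex. It set the 6 saline P60 libraries against the 3 P21 libraries, with edgeR's quasi-likelihood test on UMIs summed per class, and called genes with a Benjamini-Hochberg adjusted p under 0.05 over all genes tested and a change above 1.5-fold. The ages were separate sets of libraries, so age and library preparation cannot be told apart. In excitatory neurons, 49 members passed the filter on low counts and 7 were called, 3 higher and 4 lower at P60. That is 14.3% of those tested, against 19.3% of all 13220 genes, a share below the background. Their median log2 change was −0.04, against −0.00 for all genes tested.

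In excitatory neurons, Snap25 stood at 2944, 3134 and 2985 CPM in the P21 libraries and at 3845 to 5241 CPM (median 4512) in the saline P60 libraries. The ages did not overlap, and Snap25 rose by 0.65 ± 0.11 on the log2 scale (SE; edgeR adjusted p = 0.000556), or by 0.57, under the 1.5-fold limit, with all 12 P60 libraries. Vamp1 (chr6:125165569-125194561, build NCBIM37, plus strand) rose more in proportion from a low level, from 5.06 to 6.69 CPM at P21 to 8.49 to 13.6 CPM at P60, a log2 change of 1.03 ± 0.16 (adjusted p = 0.000283). Neither Stx1a, with a log2 change of −0.04 ± 0.09, nor Vamp2, with 0.23 ± 0.25, passed the test. The wide error of Vamp2 came with 1 library: P21 replicate 1 held 486 CPM, the other P21 libraries 222 and 229 CPM. The same replicate stood apart for other members in both directions. It was high for Cplx2 (375 against 234 and 240 CPM) and low for Vamp4 (143 against 229 and 213 CPM).

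Synaptotagmins were called in both directions, 1 of 14 tested higher and 3 lower, beside the 19.3% of all genes called in either direction. Syt5 (chr7:4491370-4498169, minus strand) rose from 264, 308 and 285 CPM at P21 to between 394 and 458 CPM at P60, by 0.61 ± 0.09 (adjusted p = 0.000219), close to the 1.5-fold limit, under which it fell in 6 alternatives (0.56 to 0.58, each with an adjusted p under 0.05). Syt13 (chr2:92755255-92796215, plus strand), which lacks the residues that bind calcium, fell from 192, 181 and 167 CPM to between 95.9 and 137 CPM, a log2 change of −0.65 ± 0.10 (adjusted p = 0.000253), or −0.56, under the 1.5-fold limit, with all 12 P60 libraries. Syt16 (chr12:75098748-75368903, plus strand), also without a calcium-binding site, fell from 88.7, 101 and 92.5 CPM to a median of 56.5 and at most 61.1 CPM (−0.67 ± 0.08, adjusted p = 8.18e-05). The ages were separate for all of these. Syt6 fell from 31.7, 32.8 and 32.0 CPM to between 3.79 and 9.35 CPM (−2.15 ± 0.23, adjusted p = 7.22e-05). Syt4 (0.48 ± 0.10) and Syt7 (−0.48 ± 0.09) had adjusted p values of 0.00258 and 0.00106 but changes under 1.5-fold, and Syt1 changed by 0.15 ± 0.07 (adjusted p = 0.134).

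Among complexins, Cplx3 (chr9:57447826-57454088, minus strand) was called lower, from 15.1, 23.4 and 28.6 CPM in the P21 libraries to between 1.45 and 7.88 CPM (−2.53 ± 0.44, adjusted p = 0.0021). The 5 inhibitory markers moved with it in the excitatory cells, from a sum of 14.5 CPM at P21 to 3.09 CPM in saline P60 libraries. The markers of other classes were lower there too, the oligodendrocyte sum at 394 and 104 CPM, the endothelial at 59.5 and 14.4 CPM, the microglial at 48.3 and 13.6 CPM and that of newly formed oligodendrocytes at 18.8 and 3.01 CPM; their part in the excitatory age changes was not tested. Cplx1 changed by −0.31 ± 0.12 (adjusted p = 0.0478) and Cplx2 by −0.07 ± 0.21. Syn1 (chrX:20437637-20498130, minus strand) lay at 339 to 390 CPM at P21 and 205 to 316 CPM at P60, a change of −0.43 ± 0.12 (adjusted p = 0.01) under the 1.5-fold limit. Its end lies within 300 bases of Araf on the opposite strand. Neither Sv2a (−0.25 ± 0.10), Sv2b (−0.21 ± 0.09) nor Syn2 (−0.11 ± 0.10) had an adjusted p under 0.05.

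**Figure D3:**
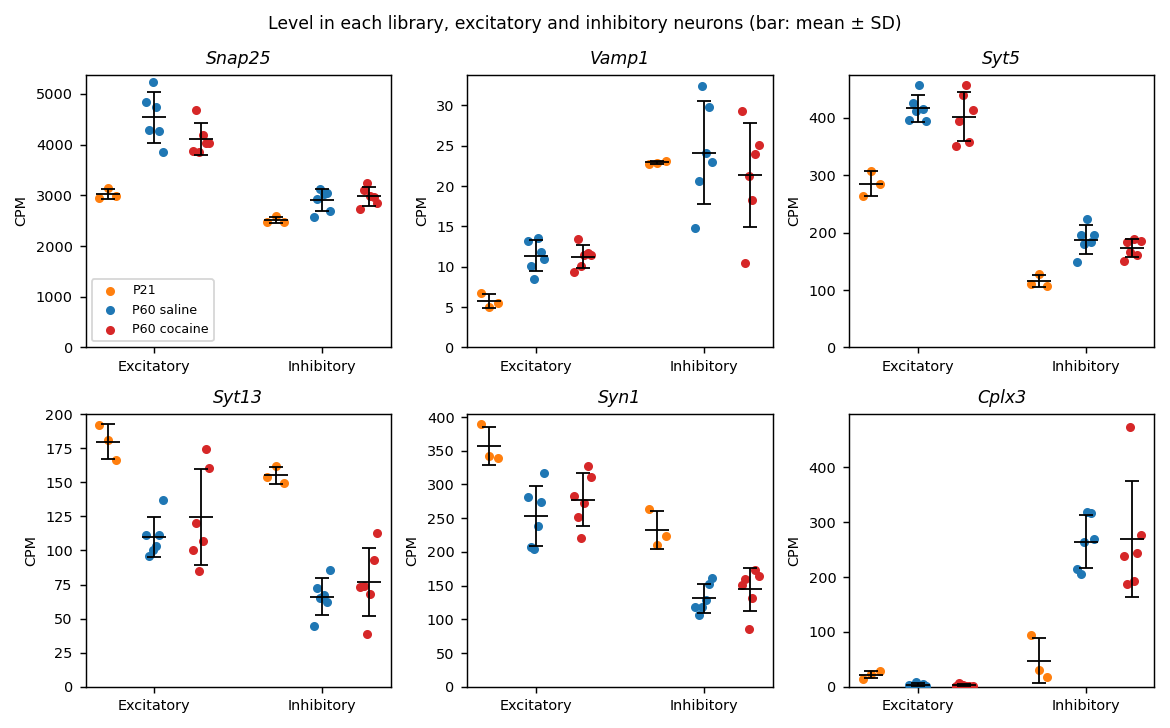
CPM of Snap25, Vamp1, Syt5, Syt13, Syn1 and Cplx3 in each library, for excitatory and inhibitory neurons, in the P21, saline P60 and cocaine P60 libraries (points), with mean ± SD. Snap25, Vamp1 and Syt5 lie higher and Syt13 lower in the saline P60 than in the P21 libraries in excitatory neurons without overlap, while Syt13 reaches 174 CPM in a cocaine library, and Cplx3 moves in opposite directions in the 2 classes.

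The sequences just upstream of 4 of these members are shown because Vamp1 rose in excitatory neurons, Syt16 was called lower in both neuron classes, Syn1 was called lower in inhibitory neurons and the age change of Cplx3 differed between the classes. Each is the stretch of 160 bases from RefSeq's promoter table (GRCm38.p6) that lies 250 to 91 bases before the RefSeq start, matched once in NCBIM37, on the strand of the gene. Capitals mark motifs searched on both strands: TTCAGCACC, part of the RE1 element; TGACGTCA, the cAMP response element; CACGTG, an E-box; GGGCGG, a GC box; and TATAAA, the TATA box. The motifs do not contain one another.
Syn1, chrX:20498135-20498294, minus strand: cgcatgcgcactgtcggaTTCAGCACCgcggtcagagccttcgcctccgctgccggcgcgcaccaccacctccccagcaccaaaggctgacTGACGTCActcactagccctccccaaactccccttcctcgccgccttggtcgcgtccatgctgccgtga
Vamp1, chr6:125165349-125165508, plus strand: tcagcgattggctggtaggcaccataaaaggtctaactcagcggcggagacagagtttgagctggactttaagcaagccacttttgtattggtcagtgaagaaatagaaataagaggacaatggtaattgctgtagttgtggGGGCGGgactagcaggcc
Syt16, chr12:75098514-75098673, plus strand: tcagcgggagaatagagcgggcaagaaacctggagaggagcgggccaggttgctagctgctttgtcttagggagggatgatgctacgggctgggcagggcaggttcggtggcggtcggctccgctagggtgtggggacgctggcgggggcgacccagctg
Cplx3, chr9:57454179-57454338, minus strand: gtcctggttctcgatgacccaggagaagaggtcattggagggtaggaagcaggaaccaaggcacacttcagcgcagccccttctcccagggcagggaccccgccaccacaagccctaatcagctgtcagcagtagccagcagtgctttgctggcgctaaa

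Of the 58 members, 42 had an entry in that table, with 57 windows between them. Shares are of windows and member counts are of genes with a match in any of their windows, so they are not compared. TTCAGCACC was in 0.201% of the 32851 promoter windows of all genes and in 1 member, Syn1, and TGACGTCA in 0.417% and again in Syn1. CACGTG was in 3.14% of windows and in Sv2b and Vamp4, TATAAA in 7.66% and in Stx2 and Sv2b, and GGGCGG in 18.1% and in 18 members, Vamp1 among them. A match is a description of these letters in this window.

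Because the mixture of excitatory clusters differed between the ages, the same test was run in each cluster. Over 26 clusters, 109 of 834 tests of members were called, 46 higher and 63 lower at P60, which is 13.1% against 11.3% over all genes. With a minimum of 30 cells in place of 10, 65 of 615 tests were called. The 11.3% belongs to the minimum of 10 cells, and the share of all genes at 30 cells is not given here. The clusters of one library share its preparation and are not independent of one another. Snap25 rose in 17 of 26 clusters, and its log2 change was above 0 in all 26, from 0.18 in Exc_26 to 0.88 in Exc_1. Syt5 rose in 13 clusters and was above 0 in all 26. Syt13 fell in 20 of 26 clusters, with log2 changes from −1.17 in Exc_11 to −0.25 in Exc_18. Syt16 fell in 10 of the 25 clusters in which it was tested, Syn1 in 10 of 26 and Syt7 in 9 of 26. Among the other syntaxins, Stx16, a Golgi SNARE, rose in 5 of 25 clusters and the endosomal Stx8 in 4 of 26. The Syn1, Syt13 and Syt7 counts dropped to 3, 13 and 5 without P21 replicate 1, and the Stx16 count to 1 without P21 replicate 2. Stx1a, Vamp2, Syt1, Syt11 and Cplx1 were tested in 26 clusters and called in none of them by this test.

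**Figure D4:**
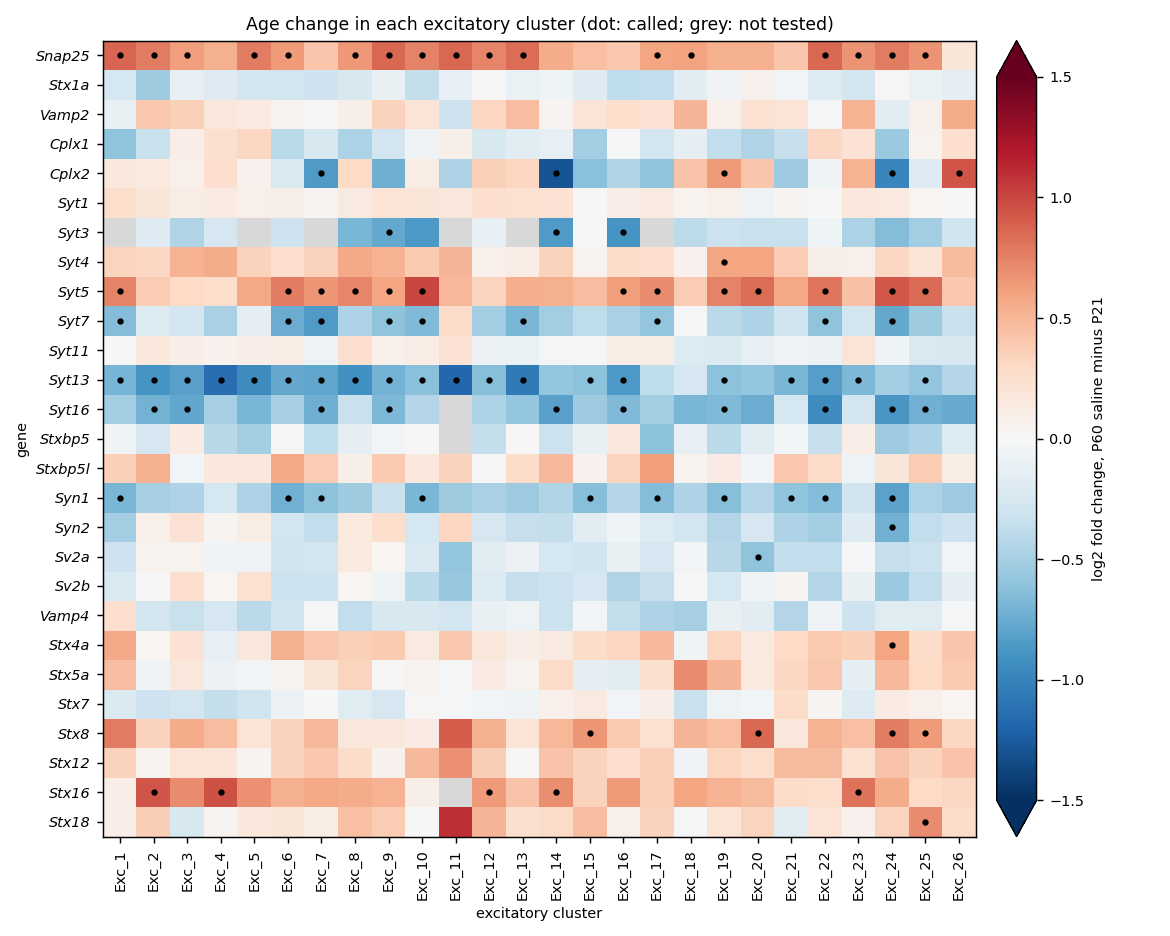
Log2 change from P21 to saline P60 of members tested in at least 13 of the 26 excitatory clusters, with dots on called changes and grey where a gene was not tested. The rows of Snap25 and Syt5 are on the higher side and those of Syt13, Syt16 and Syn1 on the lower side across clusters, and Cplx2 is mixed.

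Cplx2 went both ways. It rose in Exc_19 (0.64 ± 0.16, adjusted p = 0.00742) and Exc_26 (0.94 ± 0.22, adjusted p = 0.0239) and fell in Exc_7 (−0.84 ± 0.26), Exc_14 (−1.30 ± 0.23) and Exc_24 (−0.98 ± 0.25). The 3 falls numbered 1 without P21 replicate 1, the library high in Cplx2.

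Cplx3 and Syt6 were also compared within Exc_18, Exc_19 and Exc_20, the clusters highest in Syt6. The shares of Exc_18 and Exc_20 in the class differed between the ages, that of Exc_19 little. Exc_18 made up 6.34% of excitatory cells at P21 and 1.85% in saline P60 libraries, Exc_20 8.34% and 1.40%, and Exc_19 7.52% and 6.65%. Within these clusters Syt6 fell by 1.02 ± 0.20 in Exc_18, 0.83 ± 0.16 in Exc_19 and 0.73 ± 0.23 in Exc_20 on the log2 scale (adjusted p = 0.00283, 0.000803 and 0.0477), less than the −2.15 of the class. Without saline 15-day replicate 1 the number of clusters in which Syt6 was called lower was 1. In Exc_20, Cplx3 had 485 UMIs in 495 P21 cells and 0 in 94 saline P60 cells, which is at least 46.6-fold lower taking 3 UMIs over the group as the floor. Its P21 levels there were 111, 125 and 191 CPM. In Exc_18, Cplx3 had 87 UMIs at P21 and 3 at P60 (−3.45 ± 0.66, adjusted p = 0.00258). In Exc_19 the P21 libraries held 58.5, 87.4 and 99.2 CPM, but 1 saline library reached 77.8 CPM, and the change of −2.06 ± 0.80 was not called (adjusted p = 0.115).

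In inhibitory neurons 39 members were tested and 9 called, 4 higher and 5 lower at P60, 23.1% against 14.0% of all genes tested. In this class the 5 microglial markers summed to 66.2 ± 10.9 CPM at P21 and 17.8 ± 13.3 CPM in saline P60 libraries, and the 5 oligodendrocyte markers to 324 ± 210 and 138 ± 143 CPM; their part in the changes was not tested. Syt13 fell from 154, 162 and 150 CPM to between 44.5 and 85.9 CPM (−1.18 ± 0.14, adjusted p = 4.26e-05). Syn1 fell from 264, 211 and 224 CPM to between 107 and 161 CPM (−0.80 ± 0.14, adjusted p = 0.000716), and Cplx1 from 562, 623 and 614 CPM to between 267 and 486 CPM (−0.67 ± 0.14, adjusted p = 0.00307). With a minimum of 30 cells Cplx1 changed by −0.56, under the 1.5-fold limit. Stxbp6, an amisyn that binds syntaxin, and Syt16 both changed by −0.72 ± 0.24 (adjusted p = 0.0484 and 0.0462); each call was lost under 11 alternatives, among them DESeq2 (adjusted p = 0.127 and 0.121) and the omission of any of 7 single libraries. Cplx3 rose from 94.9, 30.2 and 17.6 CPM to between 206 and 318 CPM (2.46 ± 0.50, adjusted p = 0.0145). Stxbp2 rose by 1.94 ± 0.39, Stx16 by 0.81 ± 0.21 and Syt5 by 0.73 ± 0.14. Snap25 changed by 0.20 ± 0.11 (adjusted p = 0.211). Without P21 replicate 2 the 9 calls became 5, with Cplx3 (adjusted p = 0.0548), Stx16 (0.0589), Stxbp6 (0.135) and Syt16 (0.115) past the threshold no more.

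These class values mixed different proportions of clusters. Inhib_2 made up 35.4% of inhibitory cells at P21 and 7.82% at P60, and Inhib_7, the cluster highest in Cplx3, 7.90% and 35.7%. Within the 3 clusters that had enough cells at both ages (Inhib_2, Inhib_7 and Inhib_9), 2 of 76 tests of members were called, against 1.63% of tests of all genes: Syt5 rose in Inhib_2 by 1.02 ± 0.23 and Syt4 in Inhib_7 by 1.01 ± 0.25. Within Inhib_7, Cplx3 changed by 0.45 ± 0.19 (adjusted p = 0.191) and Cplx1 by 0.12 ± 0.18 (adjusted p = 0.805). Syt13 changed by −0.92 ± 0.26 in Inhib_2 (adjusted p = 0.116) and Syn1 by −0.70 ± 0.22 in Inhib_7 (adjusted p = 0.0736). Pooled over libraries, Syn1 and Syt13 were each lower at P60 in 11 of 12 inhibitory clusters, Syt5, Syt4, Stx16 and Stxbp2 each higher in 11, and Snap25 higher in 12. Sv2a, not called in the class, was lower in 12, and Stxbp6, called lower in the class, was higher in 8 and lower in 4.

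Whether the age change itself differed between the neuron classes was tested as an interaction with library as a block, on 49 members. It was called for 4, which is 8.16% against 7.21% of all genes. Cplx3 differed most (excitatory minus inhibitory, −5.00 ± 0.78 on the log2 scale, adjusted p = 0.00626), followed by Stxbp2 (−1.38 ± 0.39), Vamp1 (0.88 ± 0.25) and Stxbp6 (0.85 ± 0.24). The mixture of clusters differed between the ages in both classes, and its part in these values was not tested. Without P21 replicate 2 only Cplx3 was still called, and likewise with DESeq2, where Stxbp2, Vamp1 and Stxbp6 had adjusted p values of 0.0639, 0.0567 and 0.140. After thinning to equal depth the Stxbp2 difference turned to 0.44 (adjusted p = 0.949). Snap25 (0.47 ± 0.08, adjusted p = 0.00023) and Syt13 (0.58 ± 0.12, adjusted p = 0.000662) had a difference between classes under 1.5-fold.

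Outside neurons, 7 changes were called, and 0 after thinning to equal depth, where 60 tests of members in place of 137 passed the filter and 3 of the 7 changes were still tested. In oligodendrocytes, 4 of 26 members tested passed (17.8% of all genes did). Vamp5 rose from 7.0, 0 and 2.33 CPM to between 32.6 and 82.7 CPM (3.03 ± 0.45, adjusted p = 0.000135, or 4.82 without P21 replicate 1) and Vamp8 from 5.50, 9.96 and 14.0 CPM to between 22.5 and 30.1 CPM (1.58 ± 0.38, adjusted p = 0.00726). Stx6, a SNARE of the Golgi and endosomes, fell by 1.75 ± 0.33 on the log2 scale, and Stxbp6 by 0.81 ± 0.22. In endothelial cells, 3 of 39 passed (12.7% of all genes). Syt12 fell from 6.97, 7.98 and 6.08 CPM to at most 1.93 CPM (−3.13 ± 0.55, adjusted p = 0.00122), Stx6 changed by −1.05 ± 0.23 and Stxbp6 by 0.81 ± 0.24. Endothelial Stx6 changed by −0.69 without P21 replicate 1 (adjusted p = 0.0499) and by −0.71 after thinning (adjusted p = 0.133). Without P21 replicate 1, the oligodendrocyte changes of Stx6 (−1.04, adjusted p = 0.101) and Vamp8 (0.98, adjusted p = 0.134) were not called. Stxbp6 was lost in oligodendrocytes with all 12 P60 libraries (−0.52, adjusted p = 0.207) and without P21 replicate 2 (adjusted p = 0.0865). In endothelial cells the Stxbp6 call was lost without any of 5 libraries (adjusted p 0.0504 to 0.137), at log2 changes of 0.69 to 0.80. The 5 microglial markers summed to 22.1 CPM in saline P60 oligodendrocytes and 149 CPM at P21, and to 47.8 and 152 CPM in endothelial cells; their part in these changes was not tested.

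None of the 27, 21 and 24 members tested in astrocytes, newly formed oligodendrocytes and microglia was called, where 1.11%, 1.94% and 0.726% of all genes were. At an unadjusted p under 0.05 there were 3, 3 and 1, or 11.1%, 14.3% and 4.17% of members against 14.0%, 14.9% and 11.4% of all genes. In astrocytes 20 of the 27 log2 changes were above 0, with a median of 0.46 against 0.02 over all genes. Snap25 averaged 465 ± 497 CPM in 5 saline P60 libraries and 119 ± 54.1 CPM at P21, and the excitatory marker Slc17a7 63.1 ± 59.1 and 30.1 ± 20.2 CPM in the same cells; its part was not tested. Precursors had enough cells in 1 P21 library and were not tested.

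The other genes of the release pathway were taken from a list of 51 (priming and active zone, vesicle proteins, SNARE recycling and endocytosis). In excitatory neurons 12 of 50 tested were called, 3 higher and 9 lower, 24% against the 19.3% above. The rises were Rims3 (1.06 ± 0.12), an active zone protein, the vesicle protein Synpr (0.93 ± 0.14) and Rimbp2 (0.60 ± 0.13), which links the active zone to calcium channels. The largest falls were Slc32a1 (−2.09 ± 0.36), Slc17a8 (−1.40 ± 0.23) and Rab3b (−1.31 ± 0.19). Slc32a1, the vesicular GABA transporter, is one of the 5 inhibitory markers whose sums are given above. In inhibitory neurons 8 of 45 were called, 17.8% against the 14.0% of all genes: Rab3c (1.25 ± 0.16) and Rims2 (0.72 ± 0.19) rose, and Slc17a8 (−1.93 ± 0.43), Doc2b (−1.29 ± 0.37) and Rab3b (−1.17 ± 0.30) were the largest of 6 falls.

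The cocaine comparison asks whether self-administration and withdrawal altered the same genes. It used 1 fit over the 12 P60 libraries with cocaine set against saline within each period, 2 libraries against 2. No member was called by edgeR in excitatory neurons at any period: 0 of 48 at maintenance (background 0.0%), 48 h (0.0%) and 15 days (0.706%), with 1, 4 and 2 members at an unadjusted p under 0.05 and 0 by DESeq2. Those are 2.08%, 8.33% and 4.17% of members, against 6.61%, 4.94% and 6.86% of all genes. The mean over periods (0.0%) and the difference between periods (0.0%) gave 0 calls too, with 1 and 3 at an unadjusted p under 0.05 (8.53% and 5.25% of all genes) and 0 by DESeq2. In inhibitory neurons, 0 of 38 were called at maintenance (0.0%), 48 h (0.0115%) and 15 days (0.84%), with 2, 1 and 2 at an unadjusted p under 0.05 (4.13%, 4.81% and 6.14% of all genes) and 0 by DESeq2. In the non-neuronal classes 0 of 466 tests were called (0.0485%), 18 had an unadjusted p under 0.05 (3.86%, against 4.37% of all genes), and DESeq2 called 0. With 2 libraries a group, a missed threshold does not show that levels were alike.

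The member nearest to a call was Syt13 in excitatory neurons at 15 days. Its levels were 174 and 160 CPM in the cocaine libraries and 112 and 137 CPM in the saline libraries, with no overlap, a log2 change of 0.47 ± 0.13 (unadjusted p = 0.00263, adjusted p = 0.146). Inhibitory neurons gave 93.1 and 113 CPM against 62.1 and 85.9 CPM (0.49 ± 0.21, adjusted p = 0.583). At maintenance and 48 h Syt13 changed by 0.08 ± 0.14 and −0.10 ± 0.13 in excitatory neurons, and the difference between periods was not called (adjusted p = 0.832). Without saline 15-day replicate 2, Syt13 was called in excitatory neurons at 0.63. Syt17, a low gene, had 20.1 and 18.3 CPM at 48 h in cocaine against 10.3 and 12.5 CPM in saline libraries (0.71 ± 0.16, adjusted p = 0.425). Snap25 changed at 48 h by −0.33 ± 0.11 (unadjusted p = 0.0107, adjusted p = 0.977), with cocaine libraries at 3846 and 4187 CPM and saline libraries at 5241 and 4743 CPM. Vamp2 and Syt1 had log2 changes between −0.08 and 0.21 at the 3 periods.

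**Figure D5:**
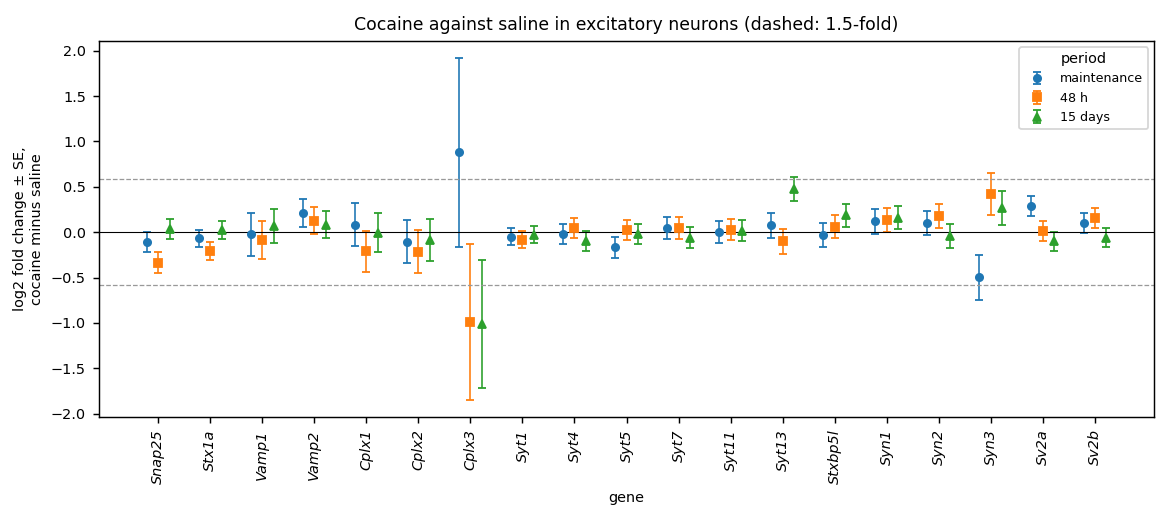
Log2 change (cocaine minus saline, ± SE) in excitatory neurons at maintenance, 48 h and 15 days, with dashed lines at 1.5-fold. Drawn are Snap25, Stx1a, Vamp1, Vamp2, the tested complexins, synapsins and SV2 genes, and Syt1, Syt4, Syt5, Syt7, Syt11, Syt13 and Stxbp5l. Other members named in the text, such as Syt17, are not drawn. No point is a called change, and Syt13 at 15 days lies at 0.47 ± 0.13.

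Within excitatory clusters, 0 of 513 tests at maintenance and 0 of 649 at 48 h were called (background 0.00647% and 0.0051%), with 18 and 48 at an unadjusted p under 0.05 (3.51% and 7.4%, against 5.56% and 4.93% of all genes) and 0 by DESeq2. At 15 days 4 of 889 were called, 0.45% against 1.24% of all genes. Syt13 rose in Exc_4 (0.74 ± 0.20, adjusted p = 0.0336), Exc_7 (0.67 ± 0.16, adjusted p = 0.0389) and Exc_11 (0.64 ± 0.19, adjusted p = 0.0443), and Cplx2 fell by 0.93 ± 0.26 in Exc_6 (adjusted p = 0.0474). In Exc_4 the cocaine libraries held 203 and 131 CPM of Syt13 and the saline libraries 84.2 and 116 CPM. In Exc_7 they held 162 and 124 against 85.6 and 97.2 CPM, and in Exc_11 221 and 185 against 126 and 143 CPM. The Syt13 change lay above 0 in 26 of 26 clusters, between 0.14 and 0.74, but all clusters came from the same 4 libraries. DESeq2 called none of the 4, and they numbered 0 without cocaine replicate 1 or saline replicate 1 of that period, 1 without cocaine replicate 2 and 13 without saline replicate 2. Cplx2 in Exc_6 was low throughout, at 26.3 and 22.5 CPM against 52.9 and 42.6 CPM.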

How the data were processed

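Per the labels and the study's methods, the authors made libraries with the 10x Chromium 3′ kit, aligned reads to mm9 with Cell Ranger (the version differs between the methods and the submitters' notes) and clustered cells with Seurat 2.1.0. The deposited matrices hold raw counts of UMIs per gene and cell, and the deposited cell table gives library, class, cluster, UMI count and the mitochondrial fraction. At P21 the authors assigned names by correlation with the P60 clusters. Only cells in that table were used; how doublets were treated beyond the authors' filtering was not examined.

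UMIs were summed per library and class or cluster, leaving out libraries with under 10 cells of a type, 13 mitochondrial and 143 ribosomal protein genes. edgeR 4.0.16 (R 4.3.3) fitted robust quasi-likelihood models with TMM scaling and filterByExpr; calls needed a Benjamini-Hochberg adjusted p under 0.05 over all genes tested and a change above 1.5-fold. SE is the log2 change over the square root of F. DESeq2 1.42.0 was an alternative. Each P60 library pools 2 mice, so p-values measure the spread between libraries. Intervals of counting error are not given for replicated values; the floor of 3 UMIs covers counting error only. The fits were tested on simulated data.

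Members named with values were the SNAREs, complexins, synapsins, SV2 genes, main synaptotagmins and syntaxin-binding genes, every member called in a class, and those with a highest cluster above 2 times the next. The members and lists were chosen with earlier results of these data known. Where a class or cluster is bulk-summed, lower RNA per cell and other cell content cannot be told apart. Coordinates are NCBIM37. Values of 2 members and 1 marker gene are not reported here; counts over the members include them.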

Additional observations from a re-analysis of the deposited data

Results flagged for a closer look

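In 65 groups of 4 to 10 samples checked for a sample far from the others, 2 were found, where chance gives about 1 in 20. Cplx2 in inhibitory neurons reached 948 CPM in saline maintenance replicate 2, whereas the nearest saline library had 497 CPM and the lowest 290 CPM. Vamp5 in inhibitory neurons was 8.53 CPM in saline 15-day replicate 1, against 3.00 CPM in the nearest and 0 in the lowest library.

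The change with age differed between excitatory and inhibitory neurons in the interaction test (edgeR, excitatory minus inhibitory, log2 scale) for Cplx3 (−5.00 ± 0.78), Stxbp2 (−1.38 ± 0.39), Vamp1 (0.88 ± 0.25) and Stxbp6 (0.85 ± 0.24). DESeq2 and the omission of P21 replicate 2 each left Cplx3 as the one call, and thinning to equal depth turned Stxbp2 to 0.44. The cluster mixtures of both classes differed between the ages, and their part in these differences was not tested.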

How the results depend on the processing

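No paired analysis was possible because the labels give no replicate numbers that pair samples across groups. Counts below are of members called. The share of all genes called under each alternative is not given here, so the counts show only how member calls moved. Without the fold cutoff the counts were 23 in excitatory and 11 in non-neuronal cells (7 and 7 with it). They were 182 in excitatory clusters and 10 for the difference between neuron classes (109 and 4 with it). By edgeR at an unadjusted p under 0.05 stood 53.1% of members and 49.5% of all genes in excitatory neurons. The shares were 39% and 28.6% in excitatory clusters and 34.7% and 23% for the difference between classes. They were 23.1% and 33.4% in oligodendrocytes and 20.5% and 29.4% in endothelial cells. After thinning to equal depth the counts of members called were 5 in inhibitory neurons (9 before) and 0 in non-neuronal cells. They were 2 for the difference between classes and 0 for cocaine in clusters (4 before). The interaction of Stxbp2 reversed to 0.44. Within inhibitory clusters, an alternative added after seeing the data, 2 were called. A minimum of 30 cells left 65 age and 2 cocaine calls in clusters. DESeq2 called 1 for the difference between classes and 0 for cocaine in clusters. With no filter on low counts, cocaine gave 1 in excitatory neurons at 48 h, 1 at 15 days, 1 in inhibitory neurons at 48 h and 2 for the difference between periods, all from 0. With the saline libraries alone, 7 members in place of 4 were higher in inhibitory neurons without overlap. The share of all genes doing so was not taken, and fewer libraries tend to give narrower ranges. These 2 counts are therefore not read as a result about the members. Leaving out 1 library gave 7 to 9 calls in excitatory, 5 to 9 in inhibitory and 6 to 9 in non-neuronal cells, 94 to 119 in excitatory clusters, 1 to 5 for the difference between classes, 0 to 13 for cocaine in clusters, and 0 to 1 at 15 days in excitatory, at 48 h in inhibitory and in non-neuronal cells. In excitatory neurons Syt5 fell under 1.5-fold without P21 replicate 1 (0.56), saline maintenance replicate 2 (0.58) or saline 48 h replicate 2 (0.57), after thinning (0.58) and in cells whose class and cluster match (0.57, added after seeing the data). With all 12 P60 libraries Syt5 (0.58), Snap25 (0.57) and Syt13 (−0.56) did so. The cause was not tested. Of 288 counts 257 stayed within 1.5 times. Counts of 0 in both settings, as in many cocaine comparisons, were taken as unchanged. The 257 therefore do not measure how stable the calls were. Of 666 values for single members 566 were taken as unchanged. For a log2 change this means that direction and side of the threshold were kept. For a member's number of excitatory clusters called it means that the number stayed within 1.5 times.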
